A study of Mus musculus with 2 samples.

Results

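The cells described here are the 130 EL1 tumour cells with the highest joint level of Fst, Smarca1, Col27a1, Insm1, Pwwp3b, Fjx1 and Hamp, out of 975 EL1 cells and 1723 cells in all that passed the same filter. They were chosen by a score, the mean over the 7 genes of the natural log of 1 plus counts per 10000 UMIs. A UMI is a molecular tag that marks 1 captured RNA molecule. The filter asked for 500 or more genes and 5000 or more UMIs per cell, with no more than 20% of UMIs from mitochondrial genes. The other 845 EL1 cells of this filter are called the remaining cells.

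EL1 mice (FVB/N-EL1-Luc/EL1-TAg) carry the SV40 Large T-antigen and Firefly luciferase, each under the elastase I promoter, which is active in pancreatic acinar cells. WTg mice are double transgenics that also carry Mettl3, the catalytic subunit of the m6A RNA methyltransferase, under the CAG promoter, which is active in most cell types. The Mettl3 transgene was made in BL/6 mice, so the strain background and the transgene cannot be told apart. Pancreatic tumours of both genotypes were taken at 6 weeks and measured with 10x 3′ single-cell RNA-seq, with 1 library per genotype and no stated number or sex of animals. No value therefore has a biological replicate, no difference was tested, and every interval below is a 95% interval for counting error only.

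The EL1 library held 39171674 UMIs in 1621 barcodes and the WTg library 34871992 UMIs in 1488 barcodes. The kept cells had a median of 30009 UMIs in EL1 and 39184.5 in WTg. The libraries shared 15 barcodes, of which 14 were kept in EL1, and none of these was among the 130 cells. The sample labels call both libraries epithelial cells. The epithelial keratin Krt8 stood at 7436 CPM (7359 to 7513) in the 130 cells and at 160 CPM (126 to 199) in the 21 EL1 cells of a cluster led by macrophage genes, and the acinar protease Cpa1 at 16818 CPM and 431 CPM (375 to 494). UMIs of Krt8 were in 16 and of Cpa1 in 19 of those 21 cells, so a UMI alone does not mark an epithelial cell.

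The 7 genes have differing known functions. Follistatin, encoded by Fst, is a secreted protein that binds and neutralises activins, which are ligands of the TGF-beta family. Insm1 is a zinc-finger transcription factor of endocrine and neuroendocrine differentiation, and Hamp encodes hepcidin, the hormone that lowers iron export through ferroportin. Smarca1 encodes an ATPase of ISWI chromatin remodelling complexes, Col27a1 a fibrillar collagen chain, Fjx1 the mammalian relative of the Drosophila kinase four-jointed, and Pwwp3b a protein with a PWWP domain.

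The score formed a continuous range. It ran from 0.803 to 1.46 with a median of 0.964 in the 130 cells, and from 0 to 0.801 with a median of 0.369 in the remaining cells. The nearest cells on each side of the threshold thus stood at 0.803 and 0.801. Within 0.05 of it lay 24 chosen and 36 other cells, and within 0.1 lay 42 chosen and 65 other cells. No gap in the score separated the groups, so the 130 cells are described as the upper end of a range. A mean over sparse genes does not show whether a separate type exists. Pearson's r of the score with the log of UMIs per cell was 0.16 over 975 cells of the same library. The chosen and the remaining cells had similar depth, with medians of 29699 and 30078 UMIs, and similar mitochondrial shares, with medians of 4.28% and 4.11%. After each cell was thinned to 5000 UMIs, the median number of genes was 1975.5 in the chosen and 1840 in the remaining cells.

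**Figure D1:**
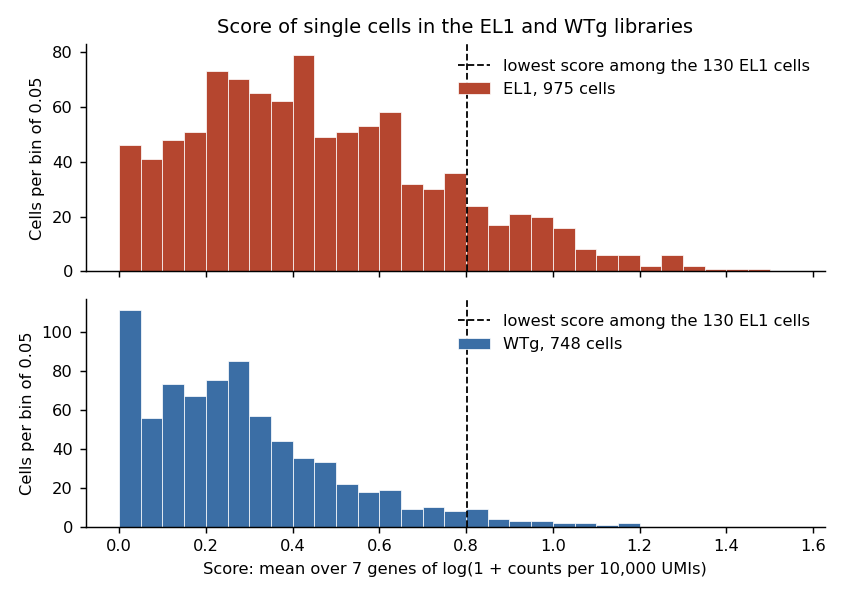
Histogram of the score in single cells, with the score on the x axis and cells per bin of 0.05 on the y axis, for EL1 above and WTg below. The dashed line is the lowest score among the 130 EL1 cells, 0.803, and no gap appears there in either library.

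The levels of the 7 genes chose the cells and are given as a description. Fst (ENSMUSG00000021765, chromosome 13, 114452290 to 114458951, minus strand, GRCm38) stood at 107 CPM (97.8 to 116) in the chosen cells and 21.2 CPM (19.6 to 22.8) in the remaining cells, where CPM is counts of the gene per 1000000 UMIs of the summed cells. It overlaps the plus-strand gene Gm47040 in the annotation. Fst UMIs were found in 56 of the 130 cells and in 137 of the 845 remaining cells, so most of the chosen cells showed none. The 10 chosen cells with the most Fst held 59.9% of the Fst UMIs of the chosen cells.

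Hamp (ENSMUSG00000050440, chromosome 7, 30942368 to 30944032, minus strand) had the widest difference of the 7, with 835 CPM (810 to 862) in the chosen and 101 CPM (97.3 to 104) in the remaining cells. It overlaps the plus-strand gene Gm44662. The 130 cells held 54.9% of all Hamp UMIs of the kept EL1 cells. Insm1 (ENSMUSG00000068154, chromosome 2, 146221921 to 146225020, plus strand) stood at 111 CPM (102 to 121) against 31.7 CPM (29.8 to 33.7). Of the 130 cells, 92 had Insm1 UMIs.

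Col27a1 (ENSMUSG00000045672, chromosome 4, 63214004 to 63334991, plus strand, host of Mir455) stood at 194 CPM (182 to 207) in the chosen and 52.2 CPM (49.7 to 54.7) in the remaining cells. Smarca1 (ENSMUSG00000031099, chromosome X, 47809368 to 47892974, minus strand) stood at 271 CPM (256 to 286) against 124 CPM (120 to 128). These genes had UMIs in 100 and 110 of the 130 cells.

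Pwwp3b (ENSMUSG00000042515, chromosome X, 139210042 to 139238335, plus strand) stood at 188 CPM (176 to 201) against 69.6 CPM (66.8 to 72.5). Fjx1 (ENSMUSG00000075012, chromosome 2, 102449366 to 102452499, minus strand) stood at 537 CPM (517 to 559) against 218 CPM (213 to 223). Fjx1 UMIs were in 125 of the 130 cells, and also in 648 of the remaining cells.

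The 7 genes were only loosely tied to each other. A chosen cell had UMIs of a median of 5 of the 7 genes and a remaining cell of 3, and all 7 were found in 15 chosen and 16 remaining cells. Fst and Insm1 occurred together in 44 of the chosen cells and 82 of the remaining ones. Over the 21 pairs of genes, Pearson's r across 975 cells ran from 0.017 to 0.23 with a median of 0.091. In sparse counts that share library and depth these are weak values. When a gene was left out of the score and another 130 cells were chosen from the other 6, the level of the omitted gene was still higher in the chosen cells, by a log2 ratio of 1.56 (1.37 to 1.74) for Fst, 0.79 (0.70 to 0.87) for Hamp, 0.67 (0.53 to 0.81) for Col27a1, 0.65 (0.47 to 0.83) for Insm1, 0.61 (0.54 to 0.69) for Fjx1, 0.58 (0.45 to 0.72) for Pwwp3b and 0.52 (0.42 to 0.62) for Smarca1. Leaving out Hamp changed the selection most, with 89 of the 130 cells kept, and leaving out Fst least, with 117 kept. Fst kept the highest ratio of the 7 in this comparison, with UMIs in 33.1% of the newly chosen cells and 17.8% of the others. The 7 genes were picked together with earlier results of these data known. These ratios therefore describe the choice and test nothing.

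Each cell's UMIs were also divided at random into 2 parts, with cells chosen on the first and levels read from the second. The second part gave log2 ratios of 2.01 (1.77 to 2.25) for Fst, 3.08 (2.99 to 3.18) for Hamp and 1.47 (1.23 to 1.70) for Insm1, and 96 cells were chosen by both parts. Both parts hold the same genes of the same cells, so the division takes only counting noise out of the choice. These ratios therefore remain a description of the chosen cells. After thinning, Fst UMIs were found in 23.8% of the chosen cells (16.8 to 32.1) and 5.92% of the remaining cells (4.42 to 7.73). In 21 EL1 cells led by the macrophage genes Lyz2, Apoe and C1qb, with a median depth of 22935 UMIs, 0 or 1 thinned cell had a UMI of any of the 7 genes.

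**Figure D2:**
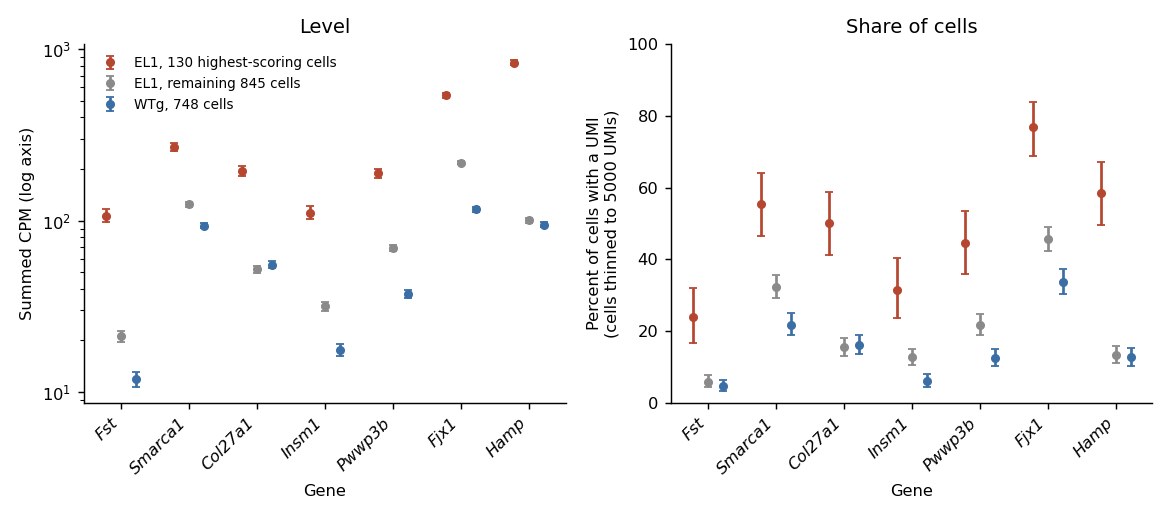
Level of each of the 7 score genes as summed CPM on a log axis (left) and the percent of thinned cells with a UMI (right), in the 130 chosen EL1 cells, the remaining 845 EL1 cells and 748 WTg cells. Bars are 95% counting intervals, and Hamp stands at 835 CPM in the chosen cells and at 101 CPM in the remaining cells.

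The 975 cells were clustered without the 7 genes and without cell cycle genes, which gave 11 clusters. Of the 130 cells, 62 lay in cluster 1, which has 168 cells and was led by Igfbp5, Col27a1, Bcr, Meg3 and Gadd45g, with Fst further down its 10 leading genes. The chosen cells were 36.9% of cluster 1 (29.6 to 44.7), against 13.3% of all EL1 cells. They were 34.5% (17.9 to 54.3) of cluster 8, with 29 cells led by Ctla2a, Krt79 and Tnr. The other 58 were spread over 7 further clusters, among them 17 in cluster 3, led by Reg3b and Tdh, 14 in cluster 0, led by S100g and Thbs1, 12 in cluster 2, led by Resp18, Cfd and Penk, and 11 in cluster 4, led by histone and mitotic genes. None was found among the 72 cells of cluster 5, led by the kallikrein Klk1 and the gastric proton pump subunit Atp4b, or among the 21 macrophage-led cells. These zeros allow shares of up to 4.99% and 16.1% by the exact binomial interval. The chosen cells therefore came from several clusters, with the highest shares in clusters 1 and 8, whose intervals overlap.

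**Figure D3:**
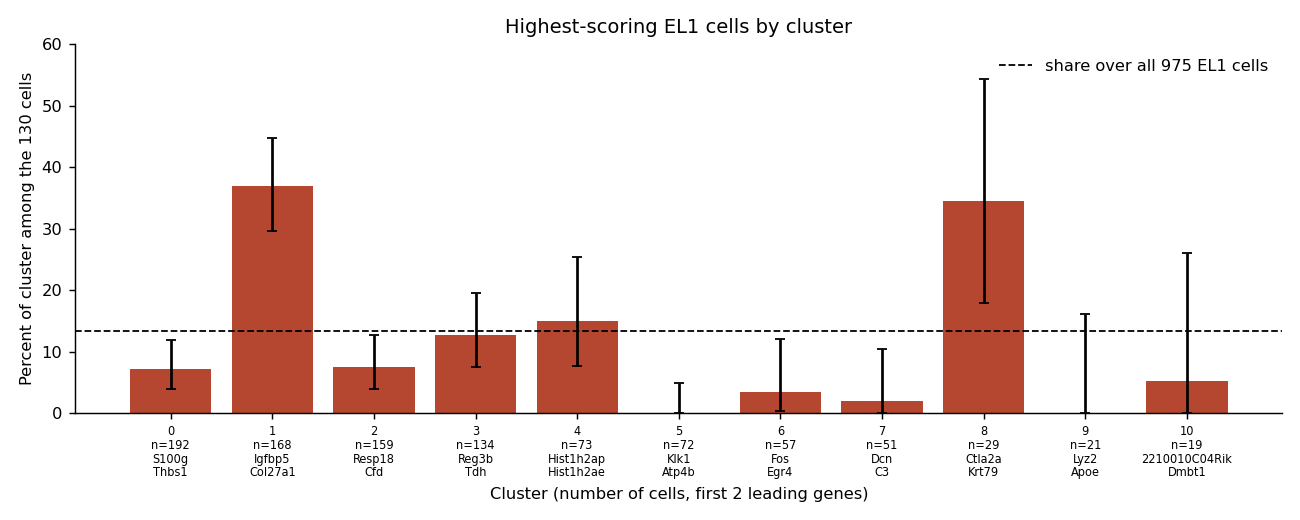
Percent of each cluster of EL1 cells that belongs to the 130 highest-scoring cells, with exact 95% binomial intervals for counting error, by cluster on the x axis. Clusters 1 and 8 stand at 36.9% and 34.5% and the dashed line marks 13.3%, the share over all 975 cells.

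A comparison of all genes used those with at least 100 UMIs in the kept EL1 cells. Of 11047 genes, 72 (0.652%) were at least 2-fold higher and 414 (3.75%) at least 2-fold lower in the chosen cells, and the median log2 ratio over all of them was 0.11. The score chose these cells, so the calls are a description. The lower calls numbered 197, and the higher ones 90, when the remaining cells were limited to the 749 with fewer than 10 UMIs of macrophage, lymphocyte, endothelial, fibroblast and red blood cell markers. They numbered 131 and 39 when the remaining cells were matched on depth. Within cluster 1 alone, where 62 chosen and 106 other cells were compared over 5619 genes, 27 (0.481%) were higher and 5 (0.089%) lower. Outside cluster 1, over 10825 genes, 77 (0.711%) were higher and 399 (3.69%) lower.

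Meg3 and Rian, a pair of long imprinted RNAs, were among the 15 higher genes named by size. Meg3, a noncoding RNA of the imprinted Dlk1-Dio3 locus, was at 66.7 CPM in the chosen and 23.5 CPM in the remaining cells, a log2 ratio of 1.51 (1.32 to 1.70), with UMIs in 38 and 97 cells. Rian, transcribed from the same locus, had a log2 ratio of 1.82 (1.39 to 2.25) over all cells and 0.29 (-0.50 to 1.06) within cluster 1. Of 13 measured imprinted growth genes, 2 passed 2-fold, Meg3 and Peg10 at 1.01 (0.81 to 1.22), which ran down to 0.14 over other settings, none was lower by 2-fold, and the list's median was 0.25.

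The genes named by size included several for secreted proteins. Igfbp5, which binds insulin-like growth factors, was at 227 CPM against 85.6 CPM, a log2 ratio of 1.41 (1.31 to 1.51), with UMIs in 110 of the 130 cells. It leads cluster 1, and within that cluster its ratio was 0.16 (0.01 to 0.31). Stc1, the secreted glycoprotein stanniocalcin, had a log2 ratio of 1.34 (1.04 to 1.63), Eln, encoding elastin, 1.15 (0.70 to 1.57) and Cthrc1, a secreted protein with collagen repeats, 1.10 (0.70 to 1.498). Stc1 kept 1.43 (0.88 to 2.01) within cluster 1, whereas Eln stood there at -0.05 (-0.82 to 0.70).

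The other genes named by size have roles in the nucleus, at membranes and at synapses. Lhx1, a LIM homeobox transcription factor, had a log2 ratio of 1.54 (1.11 to 1.95), and Dtx1, a ubiquitin ligase that regulates Notch, 1.49 (1.11 to 1.86). Flrt2, a transmembrane adhesion protein, stood at 1.27 (1.07 to 1.47), the calcium pump gene Atp2b2 at 1.27 (0.82 to 1.69), and Pclo, encoding the presynaptic scaffold Piccolo, at 1.09 (0.98 to 1.20). Pclo UMIs were in 123 of the 130 cells and in 658 of the remaining ones. The noncoding genes Gm15708 and Gm17753 stood at 1.30 and 1.22. Within cluster 1, Lhx1 stood at 0.34 (-0.30 to 0.98) and Gm15708 at 0.13 (-0.41 to 0.67). The intervals of Dtx1, Flrt2, Atp2b2, Pclo and Gm17753 lay above 0 there.

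The ratios of Ahsg, Cxcl10 and Rian rested on few cells. Ahsg, the plasma glycoprotein fetuin-A, had a log2 ratio of 2.24 (1.98 to 2.50), but 91.2% of its 215 UMIs in the chosen cells lay in 3 cells. Cxcl10, an interferon-induced chemokine, had 1.44 (1.25 to 1.63) and 87.0% of its UMIs in 3 cells. Rian had 60.6% of its 71 UMIs in 3 of the 18 chosen cells that held it, and its log2 ratio was 0.31 when Hamp was left out of the score. These intervals do not cover that concentration in single cells.

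**Figure D4:**
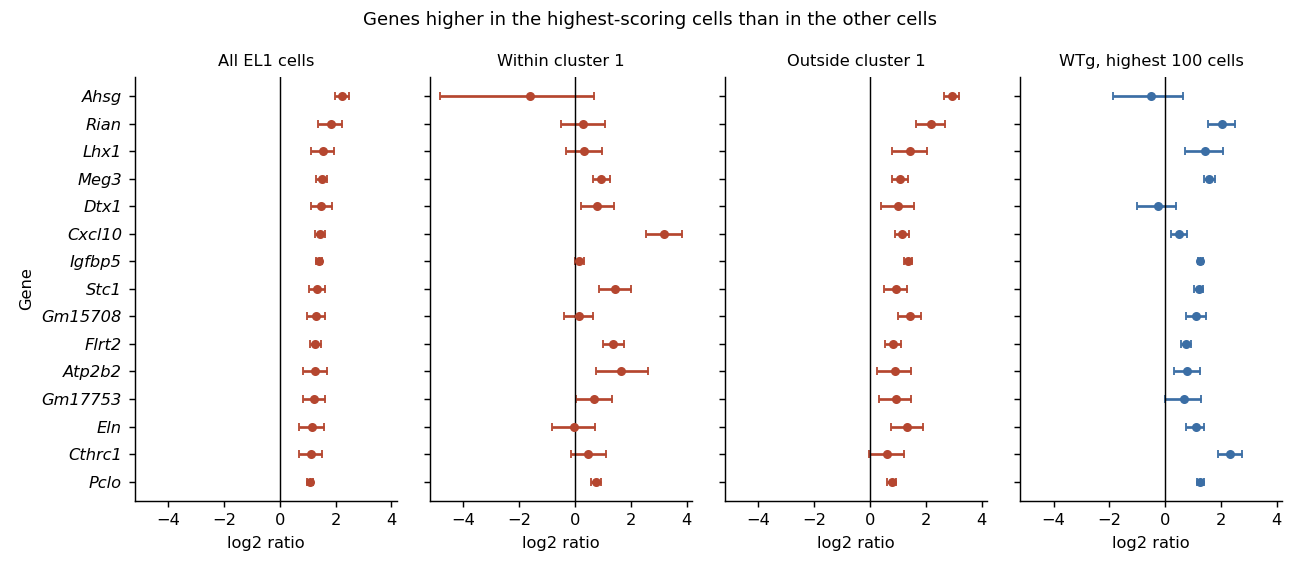
log2 ratios (x axis) of the 15 genes named as higher (y axis) in the chosen over the other cells, with 95% counting intervals, over all EL1 cells, within cluster 1, outside it, and for the 100 highest-scoring over the other WTg cells. Igfbp5 stands at 1.41 over all EL1 cells and at 0.16 within cluster 1, and Ahsg and Lhx1 had under 100 UMIs in WTg.

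The genes of endocrine and pancreatic progenitors did not stand out as lists, so the cells are named here by the score genes and not as progenitors. Of 25 endocrine progenitor factors, 9 had enough UMIs, and the 2 higher ones were Insm1, which is part of the score, and Nkx2-2, a homeodomain factor of islet development, at 5.19 against 2.50 CPM and a log2 ratio of 1.06 (0.35 to 1.72). The ratio of Nkx2-2 ran from 0.34 to 1.26 over other settings. Rfx3, a ciliary and endocrine transcription factor, stood at 0.95 (0.68 to 1.20). Without Insm1 the list's median was 0.27. Of 23 pancreatic progenitor factors, 19 were measured and 0 passed 2-fold in either direction, with a median of 0.23. Hnf4a at 0.87 (0.72 to 1.02) and Sox9 at 0.82 (0.75 to 0.90) were the highest of them, and the acinar factor Ptf1a stood at -0.50 (-0.72 to -0.28).

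Neuroendocrine secretory genes pointed in both directions. Of 23 measured, 0 were higher and 2 lower by 2-fold, with a median of 0.16. The granule protein gene Chga stood at 0.63 (0.61 to 0.65), Vgf at 0.84 (0.76 to 0.92) and Snap25, a SNARE of regulated exocytosis, at 0.88 (0.77 to 0.99). The opioid precursor Penk was lower at -1.09 (-1.44 to -0.76) and Resp18 at -1.73 (-2.16 to -1.32). All 8 islet hormones of the list had fewer than 100 UMIs.

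Acinar transcription factors and most digestive enzymes stayed within 2-fold between chosen and remaining cells. Of 10 acinar factors, 0 passed 2-fold, and their median was 0.16. Of 28 measured acinar enzymes, 0 were higher and 8 were lower, with a median of -0.44. Cpa1, a carboxypeptidase, stood at 16818 against 16055 CPM, a log2 ratio of 0.07 (0.06 to 0.08). The chymotrypsinogen gene Ctrb1 was lower at -1.22 (-1.23 to -1.20), Cela3b, an elastase, at -1.50 (-1.62 to -1.37) and Klk1, a tissue kallikrein, at -5.85 (-6.11 to -5.59). Klk1 led cluster 5, which held no chosen cell.

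Gastric and ductal lists held lower genes and no higher ones. Of 6 measured gastric genes, 4 were lower, with the proton pump subunits Atp4a and Atp4b at 1 and 2 UMIs in the 130 cells against 49.6 and 76.1 CPM in the remaining cells, while the trefoil peptide gene Tff2 stood at 0.17 (0.12 to 0.22). Of 18 measured duct and epithelial genes, 6 were lower and 0 higher, with a median of -0.39, while the summed level of the list was 15418 CPM in the chosen and 14390 CPM in the remaining cells. Sox9 stood at 0.82. Krt19, a duct keratin, stood at -1.04 (-1.39 to -0.71) and ran from -1.60 to -0.29 over other settings. Spp1, encoding osteopontin, was at -6.37, but its sign turned under 4 other score settings.

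Around Fst, the activin, BMP and TGF-beta list had 29 measured genes, of which Fst itself, which the score used, was higher and Gdf15, a stress-induced ligand, was lower at -1.50 (-1.91 to -1.11). Over other settings the ratio of Gdf15 ran from -4.22 to -0.65. The list's median without Fst was 0.15. No receptor gene of the list passed 2-fold. Among the BMP target genes, Id3 stood at 0.91 (0.81 to 1.003), Id1 at 0.44 (0.35 to 0.53) and Id2 at -0.33 (-0.46 to -0.20). The ligands Bmp7 and Bmp2 stood at 0.59 (0.36 to 0.81) and 0.56 (0.24 to 0.87).

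The lists around the other score genes held no further gene past 2-fold upwards, besides Smarca1, Col27a1 and Fjx1, which the score used. Of the other 12 ISWI genes, 0 passed 2-fold, and the Smarca1 paralogue Smarca5 stood at 0.28 (0.18 to 0.37). Of the other 7 measured collagen genes, 0 passed, with Col11a1 the highest at 0.75 (0.61 to 0.89). Of the other 13 genes around four-jointed and Hippo, 0 were higher, and the YAP target Ccn1 and the angiomotin-like gene Amotl2 were lower at -1.85 (-3.50 to -0.59) and -1.02 (-1.89 to -0.27). Over other settings the ratio of Ccn1 ran from -3.67 to -0.14 and that of Amotl2 from -1.31 to -0.03. Of 16 Notch genes, 0 were higher and Nrarp, a Notch target, was lower at -1.90 (-3.54 to -0.64).

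Of 16 iron genes, Hamp, which the score used, was higher and 4 were lower, and of the other 15, 0 were higher. Its paralogue Hamp2 stood at -0.25 (-0.59 to 0.08), so the raised level was of Hamp, as far as reads of these near-identical genes can be assigned. The haem oxygenase gene Hmox1 was at -4.10 (-4.61 to -3.63), the ferroportin gene Slc40a1 at -2.01 (-2.65 to -1.43) and the ferroxidase gene Cp at -2.60 (-3.82 to -1.60), while Hfe had 0 UMIs in the chosen cells and 3.87 CPM in the remaining ones. Against cells with few UMIs of other cell types the ratio was -2.69 for Hmox1 and -0.48 for Slc40a1, which stood at -0.85 against depth-matched cells, and that of Cp was -0.65 without Col27a1 in the score. Within cluster 1 the ratio of Hmox1 was -0.49 (-1.74 to 0.66). Of 8 Wnt genes, Tnfrsf19 passed 2-fold at 1.13 (0.50 to 1.71), and the ligand gene Wnt4 stood at 0.92 (0.77 to 1.06).

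Macrophage markers moved with the lower genes. All 12 were lower, with a summed level of 55.9 CPM in the chosen and 482 CPM in the remaining cells. Per cell, their sum ran from 0 to 12.8 per 10000 UMIs in the chosen and from 0 to 458 in the remaining cells, and Ptprc, Adgre1 and Fcgr3 had 0 UMIs in the chosen cells. Of the 269 macrophage marker UMIs in the chosen cells, 230 were of C1qa, a complement gene, found in 58 of them. Apoe, a lipoprotein gene that also led the macrophage cluster, stood at -3.17 (-3.32 to -3.03) against all remaining cells, at 0.95 against those with few UMIs of other cell types, and at 0.73 (0.32 to 1.13) within cluster 1. The galectin gene Lgals3 and the oxidase subunit gene Cyba, at -5.40 and -3.28 over all cells, stood at -2.72 and -1.15 against the same limited cells.

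The other lower genes named by size were found in few chosen cells and in a minority of the remaining cells. Their shares among the remaining cells ran from 11.5% for Smim38 to 20.7% for Lpl. Ldhb and Kng2 were among the 10 leading genes of cluster 5, which held no chosen cell. The lactate dehydrogenase gene Ldhb had 2 UMIs in 1 chosen cell against 46.1 CPM, and Kng2, a kininogen gene, 2 UMIs against 21.6 CPM. Adcy1, an adenylate cyclase gene, had 2 UMIs against 10.8 CPM. Gas6, a ligand of TAM receptors, stood at -3.96 (-5.28 to -2.91), the lipase gene Lpl at -3.91 (-4.98 to -3.03), the claudin gene Cldn6 at -3.09 (-4.98 to -1.72), Smim38 at -3.00 (-4.64 to -1.76) and the mucin-like gene Dmbt1 at -2.86 (-3.17 to -2.56). In the chosen cells 94.6% of the 93 UMIs of Dmbt1 lay in 3 cells, and its ratio ran from -6.29 to -0.57 over other settings. Obp2a, an odorant-binding lipocalin, stood at -4.12 (-4.63 to -3.65), but its sign turned under 4 other settings. Of the fibroblast markers, Dcn and Mgp had 0 UMIs in the chosen cells. Of 3 measured endothelial markers, Esam was higher at 1.11 (0.48 to 1.70), with UMIs in 25 chosen cells. The red blood cell gene Hba-a2 stood at -1.18 and changed sign under 6 settings.

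**Figure D5:**
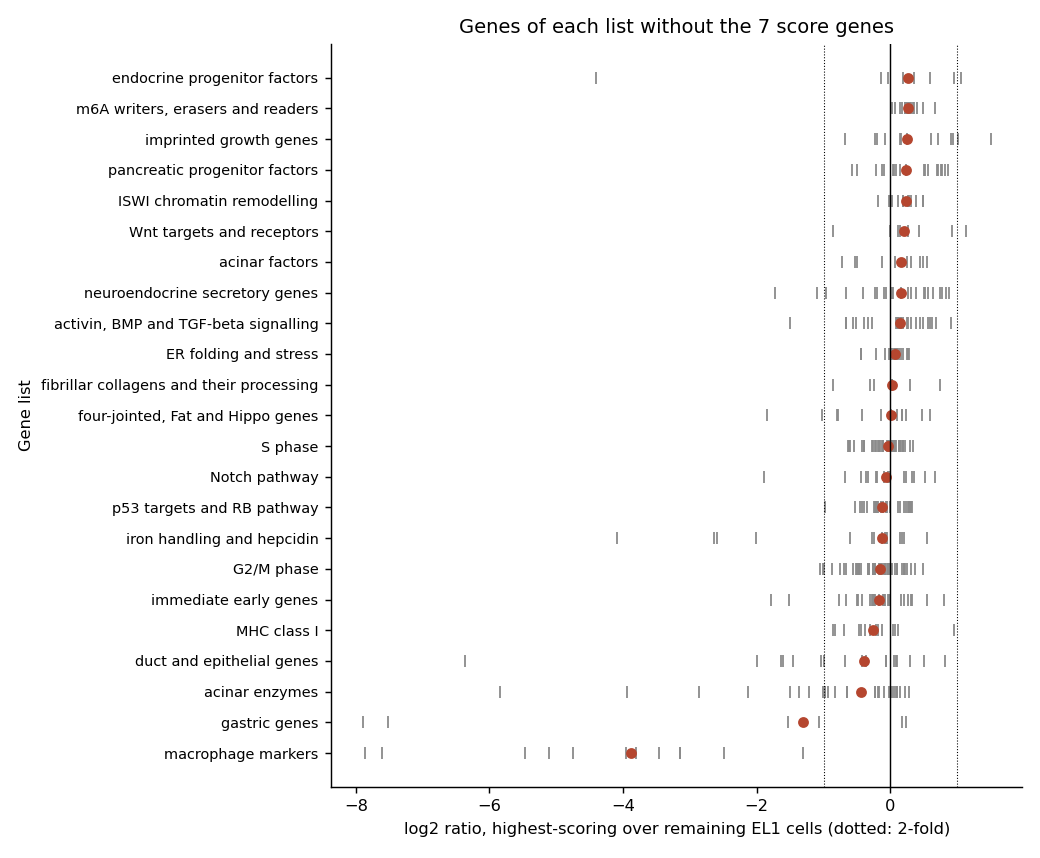
log2 ratio of chosen over remaining EL1 cells (x axis) for each measured gene of each list with at least 6 measured genes (y axis), without the 7 score genes. Grey ticks are genes, red points medians and dotted lines 2-fold. The macrophage list lies wholly below the 2-fold line, with a median of -3.88, and the pancreatic progenitor factors lie between -0.58 and 0.87.

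No cell cycle list was raised in the chosen cells. After thinning, at least 5 UMIs of the G2/M list were found in 69.2% of the chosen cells (60.5 to 77.0) and 64.6% of the remaining cells (61.3 to 67.8). With at least 10 UMIs the order was the other way, at 24.6% and 30.1%. The S-phase shares were 71.5% (63.0 to 79.1) and 71.7% (68.5 to 74.7). The median log2 ratio was -0.16 over 53 G2/M genes, of which 2 were lower by 2-fold, and -0.03 over 43 S-phase genes. The G2/M median ranged from -0.92, with a score from thinned counts, to -0.10 under other settings. Plk1, the mitotic kinase of the study's question, stood at 7.69 and 7.62 CPM, a log2 ratio of 0.01 (-0.53 to 0.52) that was -0.60 against depth-matched cells. Of its 37 UMIs in the chosen cells, 56.8% lay in 3 cells. Outside cluster 1 the ratio of Plk1 was 0.36 (-0.24 to 0.91). Within cluster 1 the other cells held no Plk1 UMI, so 3 counts took their place. The ratio was then 1.80, with a lower limit of 1.10 and no upper limit.

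Mettl3 was at 17.9 CPM (14.3 to 22.1) in the chosen and 14.5 CPM (13.2 to 15.9) in the remaining EL1 cells, a log2 ratio of 0.30 (-0.05 to 0.64). All 18 measured m6A genes had ratios above 0, with a median of 0.26 where all genes had 0.11, and 0 passed 2-fold. TMM scaling, which lowered all ratios by 0.12, turned the sign of the lowest, Mettl14, at 0.02. Fto, an m6A demethylase, was the highest at 0.67 (0.48 to 0.85). None of 26 p53 and RB genes, 20 ER folding genes or 14 MHC class I genes passed 2-fold, with medians of -0.12, 0.07 and -0.26. Of 25 immediate early genes, 2 were lower, Fos and Nr4a3, and the list's median was -0.16.

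In WTg, 26 of 748 cells (3.48%, 2.28 to 5.05) reached the lowest score of the 130 EL1 cells, against 13.3% of EL1 cells (11.3 to 15.6), which the choice of 130 fixed. The median score was 0.243 in WTg and 0.418 in EL1. With 1 library per genotype, this difference cannot be told apart from a difference between animals. Of the 7 genes, Col27a1 and Hamp stood at 55.2 and 94.7 CPM over all WTg cells, near the remaining EL1 cells. The other 5 were lower there than in the remaining EL1 cells, with Insm1 at 17.6 CPM (16.2 to 19.1). These sets are unlike, since the remaining EL1 cells lack their highest scorers and the WTg cells include theirs. Over all kept cells, Hamp had 7326 of 37636516 UMIs in EL1 and 3090 of 32642744 in WTg. Col27a1 had 2648 and 1802 UMIs, so both were lower in WTg.

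The 100 highest-scoring WTg cells, which are close to the same share of their library, were then set against the other WTg cells. Of 10784 genes, 562 (5.21%) were at least 2-fold higher and 508 (4.71%) lower, and the median over all genes was 0.27. Of the 15 genes named as higher in EL1, 13 had at least 100 UMIs in WTg, and 12 of these had intervals above 0, with 8 past 2-fold. Cthrc1 stood at 2.33 (1.90 to 2.76), Rian at 2.03 (1.54 to 2.51), Meg3 at 1.59 (1.38 to 1.79), Igfbp5 at 1.26 (1.16 to 1.36) and Pclo at 1.25 (1.13 to 1.38). Dtx1 stood at -0.27 (-1.0002 to 0.38). Of the 15 named as lower, 9 had at least 100 UMIs in WTg, all 9 were below 0 and 8 were past 2-fold. Among them were Lgals3 at -5.33 (-6.14 to -4.63) and Klk1 at -1.55 (-1.65 to -1.46). Below that minimum, Ldhb, Adcy1 and Obp2a stood above 0, at 1.12, 1.72 and 1.27, and Atp4a, Cldn6 and Smim38 below 0. The other WTg cells were not limited to those with few UMIs of other cell types.

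The neuroendocrine genes Penk and Resp18, lower in the chosen EL1 cells, were higher in the highest-scoring WTg cells, at 2.03 (1.76 to 2.31) and 2.68 (2.34 to 3.02), and Chga stood at 1.38 (1.35 to 1.40). This difference between libraries was not tested. Within EL1, the 130 cells with the highest level of Penk, Hdc and Tff3 shared 14 cells (10.8%) with those described here, the 130 with the highest S100g and Thbs1 shared 19 (14.6%), and the 130 with the highest Atp4b shared 10 (7.69%), where 13.3% of all EL1 cells are chosen cells. The chosen cells held fewer than 10 Atp4b UMIs, so the Atp4b group was filled up with cells that had none. Its share thus depends on the order of tied cells. Nothing is read from these shares. Fst stood at 41.1 CPM (35.0 to 47.9) in the first of these groups and at 27.9 CPM (23.9 to 32.3) in the second.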

How the data were processed

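The authors made UMI counts per gene and barcode from 10x Chromium 3′ libraries of pancreatic tumours and deposited them as counts, without normalization. The matrix header names Cell Ranger 6.0.2, and the submitters' processing notes name GRCm38, R 4.1 and Seurat 4.0.5. Whether intronic reads were counted is not given in the sources used here. A deposited dense table held the same counts for 1471 EL1 and 1346 WTg barcodes, and 100% of compared values were equal.

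Counts were summed over cells and given as CPM with exact Poisson intervals. Ratios had exact conditional binomial intervals and shares exact Clopper-Pearson intervals, all at 95%. Where a group had 0 UMIs, 3 counts over the group took their place and the ratio is a nominal bound, which its counting interval can pass. A gene with at least 100 UMIs was called past a 2-fold ratio. Genes named by size were the 15 highest and 15 lowest log2 ratios, outside the score genes, among those with at least 200 UMIs, at least 2-fold in the same direction with cells weighted equally and against depth-matched cells, and with UMIs in at least 10% of cells of the higher side. Of the list genes past 2-fold, only a part is named in the text. Other genes of a list were chosen for the text after their values were seen, to show the list's range and its main functions. Clusters used 2000 variable genes, 30 components, 15 neighbours and Leiden resolution 1 (scanpy 1.11.5, leidenalg 0.10.2). Cell cycle lists came from Seurat 5.3.0, and TMM from edgeR 4.0.16 was an alternative scaling. Scrublet called 6 doublets, none of them among the chosen cells, which were kept. Coordinates are from GENCODE M21 on GRCm38, in which 32235 of 32285 gene IDs matched. The ratios were tested on simulated data. The chosen cells and the gene lists were selected with earlier results of these data known. The result of 1 gene of the lists is not reported here.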

Additional observations from a re-analysis of the deposited data

Results flagged for a closer look

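Among the genes named by size and the genes of the lists, 76 were past 2-fold in the chosen EL1 cells and had UMIs in every group compared, and 17 of them pointed the other way in the 100 highest-scoring WTg cells. With 1 library per genotype these differences between libraries were not tested. The neuroendocrine genes Resp18 and Penk, lower in EL1, had log2 ratios of 2.68 (2.34 to 3.02) and 2.03 (1.76 to 2.31) in WTg. Of the other genes lower in EL1, the WTg ratios were 2.00 for Krt20, 1.72 for Adcy1, 1.29 for Ccn1, 1.27 for Obp2a, 1.12 for Ldhb, 0.87 for Esrrg and 0.77 for Aurkb, all with intervals above 0. They were 0.45 for Cp, 0.34 for Nr4a3, 0.33 for Kcnq1, 0.25 for Amotl2 and 0.13 for Nrarp, with intervals that held 0. Of the genes higher in EL1, the WTg ratio was -0.87 (-1.71 to -0.14) for Esam, -0.49 (-1.86 to 0.62) for Ahsg and -0.27 (-1.0002 to 0.38) for Dtx1.

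The 646 EL1 barcodes that the filter removed also held UMIs of the 7 score genes. Their summed level was 585 CPM (547 to 625), from 898 UMIs, against 618 CPM (609 to 626) in the remaining cells and 2244 CPM (2202 to 2287) in the chosen cells. Of the removed barcodes, 393 had over 20% mitochondrial UMIs, and Col27a1 gave 388 of the 898 UMIs.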

How the results depend on the processing

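No paired analysis was possible because each genotype has 1 library, and no library could be left out. Over 26 alternatives, 1 of which (barcodes found in both libraries left out) was chosen after seeing the data, 2083 of 2487 values stayed within their counting interval, or within 1.5 times for counts. Of 630 values of the 30 genes named by size, 625 kept their sign and 597 stayed past 2-fold. Of the 30 genes, 16 stayed past 2-fold under every alternative evaluated for them. Of 48 further list genes past 2-fold, 19 stayed so under every alternative evaluated for them. Genes that selected the cells with few UMIs of other cell types were not evaluated there. TMM scaling lowered all log2 ratios by 0.12. The cause of the shifts below was not tested.

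The 72 higher genes became 109 with cells weighted equally, 39 against depth-matched cells, 152 with the 65 highest cells, 42 under TMM, 131 with a minimum of 50 UMIs and 19 with 500. The 414 lower genes became 131 against depth-matched cells, 197 against cells with few UMIs of other cell types, 253 with the UMIs divided, 652 with a minimum of 50 UMIs and 90 with 500. Of the 130 cells, 65 are by construction the 65 highest. Their number in WTg, 26, became 10 with the 65 and 60 with the 260 highest EL1 cells.

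The log2 ratio of the 7 genes summed, 1.86, became 2.11 with cells weighted equally, 2.02 with 65 and 1.81 with 260 cells, 1.72 with genes scaled by their SD, 1.69 with a score from thinned counts, 1.74 under TMM and 1.81 with the UMIs divided. Without Fst, Insm1, Fjx1 or Hamp in the score it was 1.90, 1.81, 1.83 and 1.43.

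The G2/M median, -0.16, became -0.51 with cells weighted equally, -0.47 against depth-matched cells, -0.37 with 65 cells, -0.92 with a score from thinned counts, -0.35 with the UMIs divided, and -0.60, -0.32, -0.41, -0.86, -0.42 and -0.37 without Fst, Smarca1, Col27a1, Pwwp3b, Fjx1 or Hamp. The S-phase median, -0.03, became 0.060 with 65 cells, 0.079 with 260, -0.13 without Smarca1 and -0.15 under TMM. The G2/M shares of 69.2% and 64.6% became 85.4% and 86.0% at 3 UMIs, 24.6% and 30.1% at 10, and 99.2% and 98.3% without thinning.

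The ER folding median, 0.07, turned to -0.033 with 65 cells, -0.040 without Hamp and -0.047 under TMM, and was 0.0019 with scaled genes. The m6A median, 0.26, became 0.22 against depth-matched cells, 0.18 with 260 cells, 0.21 with thinned counts, 0.21, 0.18 and 0.21 without Smarca1, Insm1 or Hamp, and 0.14 under TMM. The activin and BMP median, 0.16, became 0.074 without Pwwp3b and 0.035 under TMM. The p53 and RB median, -0.12, became -0.26 against depth-matched cells and -0.24 under TMM. The immediate early median became -0.32 with 65 cells. The macrophage median, -3.88, became -6.02 against depth-matched cells and -3.08 with 65 cells.

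Genes past 2-fold whose sign turned were Apoe (0.95 against cells with few UMIs of other cell types), Krt20 (0.58 with thinned counts) and Cd74 (1.0001 against depth-matched cells). Obp2a turned to 0.22, 0.32 and 0.31 without Fst, Pwwp3b or Fjx1 and to 0.29 at no more than 10% mitochondrial UMIs. Spp1 turned to 0.12 with scaled genes, 0.17 with thinned counts, and 0.17 and 0.22 without Fjx1 or Hamp. Hba-a2 turned to 0.091 with scaled genes, 0.39 with thinned counts, 0.48, 0.061 and 0.097 without Fst, Fjx1 or Hamp, and 0.32 with the UMIs divided. Plk1, at 0.01 not past 2-fold, ran from -0.74 to 0.28 over these alternatives, which do not include the comparisons within and outside cluster 1.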
